A study of Mus musculus with 9 samples.

Results

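Cultures of mouse bone marrow cells carrying NUP98-NSD1 were compared with cultures carrying NRASG12D. The samples were chosen by the genotype in their labels, 3 libraries labelled NUP98-NSD1 against 3 labelled NRASG12D, which are 6 of the 9 RNA-seq libraries of the study. NUP98-NSD1 is a fusion of the nucleoporin NUP98 with NSD1, a methyltransferase of histone H3, and occurs in acute myeloid leukemia, often together with other mutations. NRASG12D is a RAS protein that an amino acid change keeps in its active state. The study asked how the fusion and the mutation cooperate, and the remaining 3 libraries, from cells carrying both, were used here only for the filter on low values and for an alternative fit. Cells of both groups came from the bone marrow of female C57BL/6J mice, 6 to 8 weeks old, injected with 5-fluorouracil (150 mg/kg) 4 days ahead of the harvest, and they were stimulated for 48 h before transduction. They grew in medium with serum, human interleukin-6, murine interleukin-3 and murine stem cell factor, and were sorted by fluorochrome and expanded before RNA was isolated. NUP98-NSD1 was carried by the retroviral vector MSCV-IRES-GFP and NRASG12D by MSCV-IRES-BFP, so both were expressed constitutively from a viral promoter, and no untransduced or empty-vector library was analysed here. According to the paper most NRASG12D cells of such cultures were mast cells, so the comparison is also one of cell types. Nothing in the labels says that replicates came from separate animals or cultures, and p-values therefore measure the spread between these libraries, which may be technical.

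RAS proteins switch on the kinases RAF, MEK and ERK, and ERK in turn induces its own feedback inhibitors, among them dual-specificity phosphatases and Sprouty-related proteins. NUP98 fusions are known for keeping progenitor genes active in myeloid cells. Myeloid progenitors mature along branches to neutrophils, monocytes and macrophages, or to mast cells and basophils, and each branch has its own receptors, transcription factors and secreted mediators.

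Levels are FPKM, in which the fragments counted for a transcript are divided by its length and by the number mapped in that library. The sequencing depth, estimated from the steps between low FPKM values, was 24000000, 35500000 and 22500000 fragments in NRASG12D replicates 1 to 3, and 29300000, 26500000 and 24000000 in NUP98-NSD1 replicates 1 to 3. Between 85.8% and 88.2% of the low values lay within 0.15 of a whole step. The 10 most abundant genes held between 13.1% and 13.3% of the FPKM sum of the NRASG12D libraries and between 7.73% and 10.2% of that of the NUP98-NSD1 libraries. NUP98-NSD1 replicate 3 stood apart from the rest of its group. Across the tested genes, which are not independent, its correlation with the other NUP98-NSD1 libraries was 0.975 and 0.978, against 0.988 between those, and its correlation with the NRASG12D libraries was 0.928 to 0.939, against 0.892 to 0.908 for the other NUP98-NSD1 libraries. NRASG12D replicate 2 held more RNA of several myeloid genes than the rest of its group, with 0.278, 16.6 and 0.831 FPKM of Cd74, the invariant chain of MHC class II, in NRASG12D replicates 1 to 3.

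Values below are given in the order of replicates 1 to 3. The labels were checked against the genes they name. Nras (ENSMUSG00000027852.14, chromosome 3 from 103058285 to 103067914) had 354, 479 and 348 FPKM in NRASG12D and 50.3, 47.7 and 51.2 FPKM in NUP98-NSD1 libraries, a log2 fold change of -2.94 (SE 0.13, adjusted p = 4.1e-05), where a fold change is NUP98-NSD1 minus NRASG12D on the scale of log2(FPKM + 1), which understates the change of genes at low level. All NRASG12D libraries lay above all NUP98-NSD1 libraries. Nup98 (ENSMUSG00000063550.8, chromosome 7 from 102119398 to 102210176) had 9.12, 11.1 and 10.8 FPKM in NRASG12D and 18.6, 18.2 and 19 FPKM in NUP98-NSD1 libraries (log2 fold change 0.79, SE 0.10, adjusted p = 0.0014), again without overlap. This is a weak check of the label. Of 28 tested nuclear pore genes 13 were called higher both as deposited and after median-ratio scaling, and the groups did not overlap in 64.2% of all tested genes. Nsd1 (ENSMUSG00000021488.8, chromosome 13 from 55209782 to 55318325), which the fusion contains only in part, had 11.7, 14.7 and 12.7 FPKM in NRASG12D and 15.7, 10.8 and 16.2 FPKM in NUP98-NSD1 libraries, and the groups overlapped (adjusted p = 0.62). Its log2 fold change was 0.10 as deposited, -0.18 after median-ratio scaling and -0.21 after quantile normalization. Transcripts of a vector and of the mouse gene were not separated.

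The test covered the 13493 genes that reached 1 FPKM in 3 or more of the 9 libraries, and 7036 of them (52.1%) passed an adjusted p of 0.05, 5689 (42.2%) higher and 1347 (9.98%) lower in NUP98-NSD1. The split depended on the scaling. Over all tested genes the median log2 fold change was 0.27 as deposited and 0.01 after median-ratio scaling, under which 3241 genes (24%) were higher and 2954 (21.9%) lower, so that the higher genes made up 52.3% of the calls instead of 80.9%. They made up 43.2% after quantile normalization. No gene was called in opposite directions as deposited and after median-ratio scaling. In what follows a gene rose or fell only if it passed the test in that direction under both, which held for 3241 genes that rose (24%) and 1347 that fell (9.98%), and the median of a gene list is given relative to the median of all tested genes as deposited. Counts of list members that rose or fell are to be read beside these shares of all tested genes. A member below 1 FPKM in every NRASG12D library passed the filter only through the other groups and could hardly fall. For lists with many such members the counts are therefore a description and no separate support for a rise. Without the filter on low values the median of all genes was 0. Where a relative median is printed below and changed sign without the filter, that value is given too. Without NUP98-NSD1 replicate 3 the test called 7948 genes. A fit of all 9 libraries leaves the fold changes as they are but takes the spread from all 3 groups, and it called 3065 genes. Where a named gene that passed the test did not pass in that fit, its adjusted p there is given as that with 9 libraries. Values of the groups did not overlap in 64.2% of the tested genes. In the plot of list medians, C-type lectin and Fc gamma receptors, chemokines, MHC class II and interferon-stimulated genes lay highest. DNA replication, mitosis and nucleotide synthesis followed. The lists of eicosanoid, histamine and serotonin synthesis and of regulated exocytosis lay lowest.

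**Figure D1:**
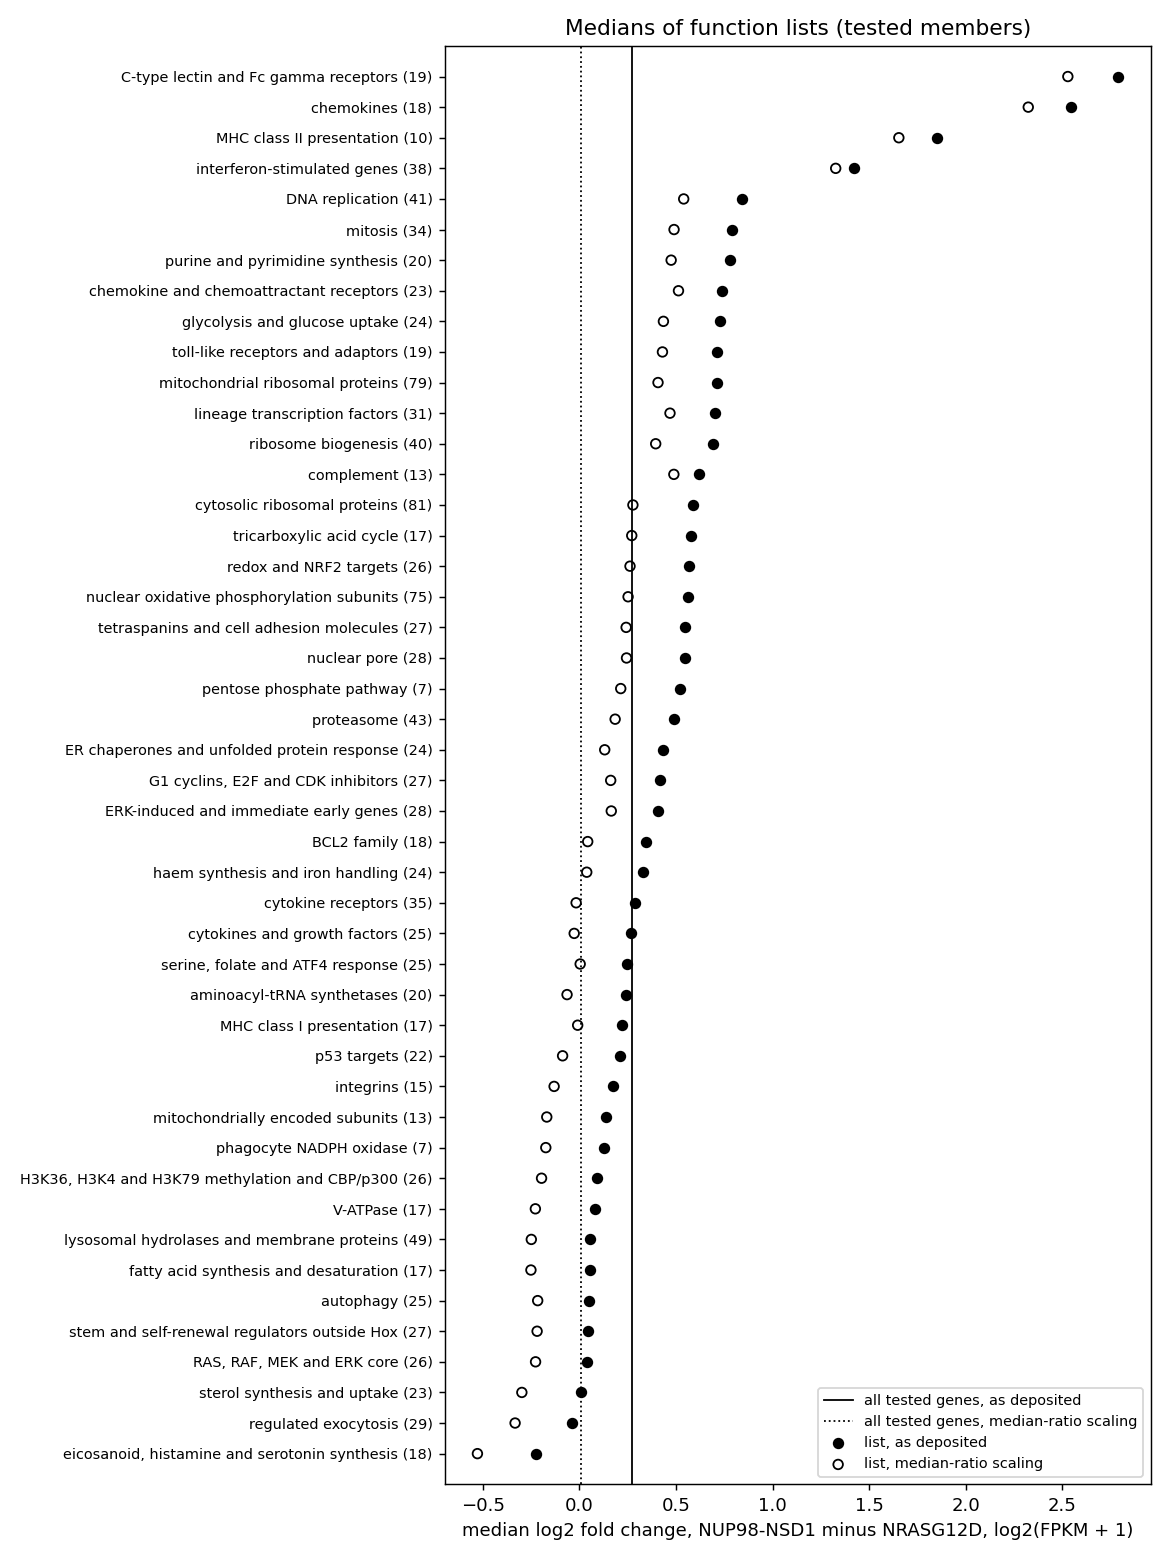
Median log2 fold change of 46 function lists, NUP98-NSD1 minus NRASG12D on the log2(FPKM + 1) scale, with the number of tested members in brackets. Filled points are values as deposited, open points values after median-ratio scaling, and the vertical lines mark the medians of all tested genes, 0.27 and 0.01. C-type lectin and Fc gamma receptors had the highest median and eicosanoid, histamine and serotonin synthesis the lowest under both scalings.

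Marker lists of 14 cell types were summed in each library. The mast cell list (25 genes) summed to 36129, 38613 and 37229 FPKM in NRASG12D and 31391, 31750 and 37030 FPKM in NUP98-NSD1 libraries (two-sided exact permutation p = 0.2, where 0.1 is the smallest that 3 against 3 allow). Over the 6 libraries together the most abundant gene of the list was the chymase Cma1, at 16008, 12715 and 15911 against 5904, 5267 and 6839 FPKM (adjusted p = 0.093 with 9 libraries). In every NUP98-NSD1 library Cpa3 was more abundant. Of the tested members of the list 6 rose, Cpa3 included, and 11 fell. Cpa3, the mast cell carboxypeptidase, was listed at 0 in all 3 NRASG12D libraries and at 13413, 12564 and 14378 FPKM in NUP98-NSD1 libraries, and no fold is given because a value of 0 can be a failed estimate. Without Cpa3, left out after seeing its values, the list summed to 36129, 38613 and 37229 against 17978, 19186 and 22652 FPKM, so the overlap of the sums rests on that gene. Markers of mast cells were abundant in every library of both groups. Fcer1a, which binds IgE, had 3717, 4435 and 3538 against 2559, 2672 and 3465 FPKM (adjusted p = 0.053), and was called lower after median-ratio scaling, under the filter of 5 FPKM, with each library rescaled to the same sum, with array weights and without NUP98-NSD1 replicate 3 (adjusted p = 0.0091), but its log2 fold change was 0.11 (adjusted p = 0.57) after quantile normalization, and its adjusted p was 0.61 with 9 libraries. Kit, the receptor for stem cell factor, fell from 982, 1119 and 1049 to 387, 382 and 561 FPKM (log2 fold change -1.26, SE 0.16, adjusted p = 0.0015, adjusted p = 0.14 with 9 libraries). The basophil list (12 genes, 3 up, 6 down) summed to 13109, 12831 and 11049 against 9573, 9683 and 11069 FPKM (exact permutation p = 0.2), with the interferon-induced membrane gene Ifitm1 as its most abundant member.

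The other myeloid lists were higher in NUP98-NSD1 libraries. Neutrophil precursor granule genes (9, all of which rose) summed to 457, 478 and 469.6 FPKM in NRASG12D and 6509, 6631 and 1946 FPKM in NUP98-NSD1 libraries, led by myeloperoxidase, Mpo, and replicate 3 was the lowest library of its group. The list holds the chaperone gene Calr, and without it, a choice made after seeing the values, the sums were 35.4, 41.6 and 38.7 against 5770, 5863 and 1386 FPKM. Late neutrophil genes (18, of which 15 rose) summed to 3.45, 15 and 4.58 against 1539, 954 and 922 FPKM, led by the calcium-binding protein S100a8. Monocyte and macrophage genes (20, of which 18 rose) summed to 99.5, 154 and 71.8 against 2985, 2189 and 2223 FPKM, led by lysozyme, Lyz2 (15.4% of its stretches of 50 bases occur in other genes, so that its level is uncertain). In all 3 lists every NUP98-NSD1 library lay above every NRASG12D library (exact permutation p = 0.1). Median levels in NRASG12D libraries were 0.00817, 0.0856 and 0.0159 FPKM for late neutrophil genes and 0.269, 1.07 and 0.226 FPKM for monocyte and macrophage genes. Many of these genes thus passed the filter through the other groups, and the counts that rose carry that limit. Dendritic cell genes summed to 78.8, 103 and 83.5 against 569, 442 and 583 FPKM. Cd74 made up 56.5% of the sum of all 6 libraries, but held only 0.278, 16.6 and 0.831 FPKM in NRASG12D against 407, 265 and 361 FPKM in NUP98-NSD1 libraries. Xcr1 and Siglech, which define dendritic subsets, stayed below 0.1 FPKM in all 6 libraries. Eosinophil genes summed to 2.2, 2.8 and 2.08 against 31.4, 43.5 and 11.5 FPKM, led by the granule protein Prg2. Fewer cells of a type and less RNA per cell cannot be told apart in these bulk libraries, and the part of cell composition in the results that follow was not tested.

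**Figure D2:**
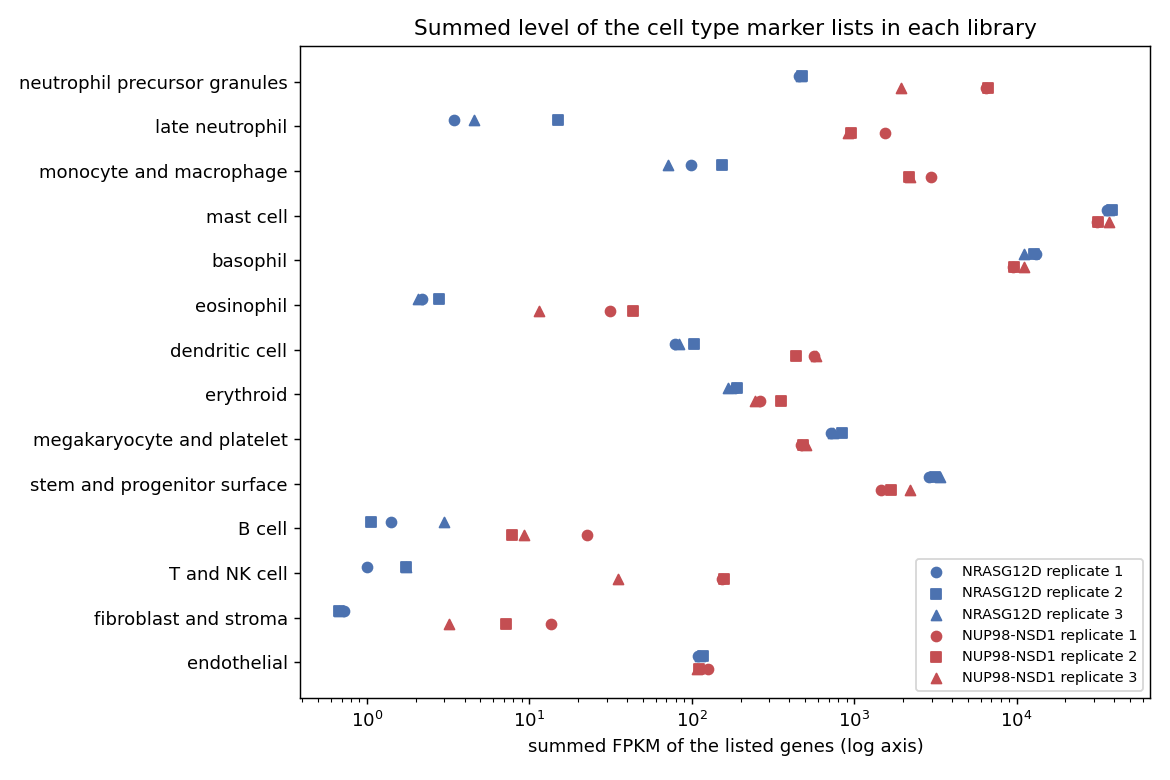
Summed FPKM of 14 cell type marker lists in each of the 6 libraries, on a log axis, with 1 symbol per replicate number and 1 colour per group. Mast cell sums, which include Cpa3, overlapped between the groups, neutrophil, monocyte and dendritic cell sums were higher in every NUP98-NSD1 library, and NUP98-NSD1 replicate 3 had the lowest neutrophil precursor sum of its group.

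Lists of other lineages were at low level or rested on few genes. Erythroid genes summed to 186, 189.5 and 167 against 264, 355 and 246 FPKM (exact permutation p = 0.1), with Gata1 as the most abundant, and of 10 tested members 7 rose, among them the globin Hba-a2 (89.3% shared), and 1 fell. Megakaryocyte and platelet genes summed to 722, 845 and 739.5 against 471, 485 and 505 FPKM, led by the integrin Itga2b, which fell from 479, 558 and 493 to 209, 205 and 276 FPKM (adjusted p = 0.2 with 9 libraries), while the platelet chemokine Pf4 rose from 0.187, 3.96 and 0.55 to 29.8, 32.8 and 22.2 FPKM. Stem and progenitor surface genes summed to 2910, 3150 and 3381 against 1466, 1678 and 2203 FPKM, led by Ly6a (19% shared, adjusted p = 0.083 with 9 libraries), which fell, whereas the costimulatory receptor Cd27 rose from 0.366, 0.136 and 0.287 to 18.1, 17.3 and 8.11 FPKM. Of 8 tested members 4 rose and 3 fell, among the latter Kit, which also counts in the mast cell list. The relative median was 0.66, from -0.30 to 0.79 over all alternatives, with a change of sign under the filter of 5 FPKM. T and NK cell genes summed to 1.0, 1.74 and 1.74 against 153, 159 and 35.2 FPKM. Of the sum of all 6 libraries 93.8% was Nkg7, a membrane protein of cytotoxic granules that also counts in the neutrophil precursor list. Nkg7 had 0, 0.0739 and 0.226 FPKM in NRASG12D against 147, 153 and 29.8 FPKM in NUP98-NSD1 libraries. Cd3d and Cd3e, which define T cells, were below 0.1 FPKM in every library. B cell genes summed to 1.4, 1.06 and 2.97 against 22.6, 7.79 and 9.25 FPKM, led by Ighm, with Igkc listed at 0 in all 6 libraries. Fibroblast and stroma genes summed to 0.72, 0.677 and 0.674 against 13.6, 7.21 and 3.19 FPKM, led by Thy1, and endothelial genes to 109.6, 118 and 113 against 126, 111 and 108 FPKM (exact permutation p = 0.9), led by Pecam1 (adjusted p = 0.12 with 9 libraries), with the endothelial cadherin Cdh5 below 0.1 FPKM throughout. Except for the endothelial list, the groups did not overlap in these sums (exact permutation p = 0.1).

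Of 19 tested C-type lectin and Fc gamma receptors 15 rose and 1 fell, with a median 2.52 above that of all genes, and 1.98 to 3.88 above it over all alternatives. Their median level in NRASG12D libraries was 0.322, 0.614 and 0.359 FPKM, so many passed the filter through the other groups and could hardly fall. Clec5a, a lectin that signals through DAP12, had 0, 2.76 and 0.0826 FPKM in NRASG12D and 101, 76.8 and 35.6 FPKM in NUP98-NSD1 libraries (log2 fold change 5.38, SE 0.58, adjusted p = 0.00091). Clec4n, which binds fungal mannans, had 0.322, 3.14 and 0.418 against 48.6, 45.6 and 72.5 FPKM. In both the groups were far apart, and the highest NRASG12D value was that of replicate 2. Fcer1g, the signalling chain shared by IgE and IgG receptors, was the most abundant member and did not pass the test as deposited, at 1182, 1140 and 1062 against 1077, 1018 and 1128 FPKM (log2 fold change -0.07, adjusted p = 0.54), whereas after median-ratio scaling it was called lower. Among 19 Toll-like receptors and their adaptors 11 rose, among them Tlr2, which recognises bacterial lipoproteins (0.18, 0.471 and 0.327 against 21.1, 12.2 and 14.5 FPKM, adjusted p = 8.5e-05), and Cd14, which hands lipopolysaccharide to Tlr4 (0.262, 0.688 and 0.0597 against 18.4, 17.1 and 9.36 FPKM). The 3 that fell included Cd180, a relative of Tlr4 (17.4, 15.8 and 16.4 against 10.7, 9.21 and 10.2 FPKM, adjusted p = 0.11 with 9 libraries). Of 13 complement genes 6 rose and 2 fell. C3, the central component, had 0.0159, 0.139 and 0.0256 against 24.6, 17.2 and 11.8 FPKM, while the inhibitors Cd59a (25, 30.2 and 18.3 against 3.92, 1.93 and 5.19 FPKM) and Cd55 (168, 217 and 139 against 102, 85.8 and 108 FPKM, adjusted p = 0.32 with 9 libraries) fell. The relative median of that list was 0.35 as deposited and 0.05 after quantile normalization. Of 7 subunits of the phagocyte NADPH oxidase 1 rose, the catalytic subunit Cybb (0.128, 0.117 and 0.0731 against 33.2, 19.4 and 23.2 FPKM, log2 fold change 4.54, SE 0.19, adjusted p = 3.6e-05), and 2 fell, Ncf4 and the GTPase Rac2, which at 1018, 912 and 1127 against 689, 658 and 685 FPKM (adjusted p = 0.056 with 9 libraries) was by far the more abundant.

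Among secreted proteins the chemokines had the higher median. Of 18 tested members 15 rose and none fell, with a relative median of 2.27, or 1.40 without the filter and up to 4.11 over all alternatives. Their median level in NRASG12D libraries was 0.207, 0.8 and 0.299 FPKM. Many of them thus passed the filter through the other groups and could hardly fall. Ccl3, which attracts monocytes, had 0.837, 2.58 and 0.414 FPKM in NRASG12D and 70.5, 71.4 and 30.5 FPKM in NUP98-NSD1 libraries (log2 fold change 4.70, SE 0.43, adjusted p = 0.00054), and Ccl9 had 0.635, 4.89 and 0.676 against 119.7, 134 and 47.7 FPKM. Both were high in all NUP98-NSD1 libraries, lowest of these in replicate 3. The most abundant chemokine, Ccl2, had 382, 740.0 and 452 against 533, 468 and 653 FPKM with overlapping groups (adjusted p = 0.71). Of 25 cytokines and growth factors 8 rose, among them Il1rn, the natural antagonist of the interleukin-1 receptor (0, 0.516 and 0.0804 against 16.7, 10.4 and 10.2 FPKM), and hepatocyte growth factor, Hgf (0.534, 1.22 and 0.786 against 11.5, 21.4 and 3.9 FPKM). The 3 that fell included Pdgfa (21.3% shared), from 10.1, 15.3 and 11.5 to 2.27, 2.47 and 3.67 FPKM. Receptors for chemoattractants followed, with 11 of 23 up and 4 down. Ccr2, the receptor for Ccl2, rose from 1.72, 6.91 and 3.72 to 108, 64.6 and 77.9 FPKM, and the leukotriene B4 receptor Ltb4r1 from 3.19, 4.18 and 4.13 to 50.5, 33.1 and 27.5 FPKM. The histamine receptor Hrh4 (26.6, 22.2 and 25.8 against 7.47, 6.71 and 4.5 FPKM) and the adenosine receptors Adora2b (52.3, 40.8 and 53.4 against 23.9, 21.4 and 26.2 FPKM) and Adora3 (19.8% shared, adjusted p = 0.14 with 9 libraries) fell.

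Receptors for the cytokines that steer lineages went in both directions, 16 of 35 up and 11 down, and the median of the list lay near that of all genes, with a sign that depended on the scaling (0.02 relative to all genes as deposited, -0.02 against 0.01 after median-ratio scaling). Csf1r, the macrophage colony-stimulating factor receptor (14.3% shared), had 0.0222, 1.28 and 0.0913 FPKM in NRASG12D and 38.4, 29.8 and 27.4 FPKM in NUP98-NSD1 libraries, and Csf3r, the receptor for granulocyte colony-stimulating factor (10.7% shared), 0, 0.0788 and 0 against 20.3, 15.7 and 9.5 FPKM. Both were close to 0 in NRASG12D libraries apart from a trace in replicate 2. Tnfrsf1a, a receptor for tumor necrosis factor, rose from 0.0198, 1.03 and 0.0212 to 30.2, 22.6 and 11.1 FPKM. Besides Kit, Tgfbr1 (172, 169.9 and 175 against 58.4, 59 and 92.8 FPKM, log2 fold change -1.32, SE 0.18, adjusted p = 0.0017) and the interleukin-4 receptor chain Il4ra (313, 312 and 304 against 136, 114 and 143 FPKM, log2 fold change -1.24, SE 0.10, adjusted p = 0.00032) fell. The receptors for the cytokines in the medium were singled out after their values were seen. Il6ra, which binds interleukin-6, was at 0.0141, 0.136 and 0.025 FPKM in NRASG12D and at 14, 9.32 and 7.2 FPKM in NUP98-NSD1 libraries. Il3ra, the specific chain for interleukin-3, fell from 47.1, 45.9 and 54.2 to 27.9, 32 and 33 FPKM (adjusted p = 0.16 with 9 libraries), and Csf2rb (12.3% shared), the chain it shares with the receptor for granulocyte-macrophage colony-stimulating factor, fell from 742, 729.5 and 759 to 349.8, 367 and 502 FPKM, while Csf2ra, the specific chain of the latter receptor, rose from 16.1, 17.2 and 16.5 to 92.1, 75.5 and 72.8 FPKM. The receptors for interleukin-3 and stem cell factor were thus lower and that for interleukin-6 higher in all 3 NUP98-NSD1 libraries.

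Of 38 interferon-stimulated genes 26 rose and none fell, and the median of the list was 1.15 above that of all genes. Irf7 (ENSMUSG00000025498.15, chromosome 7 from 141262706 to 141266481), a transcription factor that amplifies the interferon response, had 1.27, 1.78 and 1.42 FPKM in NRASG12D and 13.9, 27.5 and 40.6 FPKM in NUP98-NSD1 libraries (log2 fold change 3.39, SE 0.34, adjusted p = 0.00077). Zbp1, a sensor of left-handed nucleic acid, had 0, 0.416 and 0.0231 against 7.41, 9.98 and 14.8 FPKM, and Rtp4 (11.6% shared) had 0.0279, 0.331 and 0.123 against 7.86, 14.4 and 31.9 FPKM. In these 3 genes NUP98-NSD1 replicate 3, which was lowest in granule genes, was the highest library. Without it the relative median of the list was 0.76. Ifitm3 (10% shared), a membrane protein that blocks virus entry, was the most abundant member and did not follow that order, at 128, 133 and 81.3 against 757, 582 and 655 FPKM. Isg15, a ubiquitin-like modifier, and Ifit1, which binds viral RNA, were chosen for their promoters after their values were seen. Isg15 had 1.07, 2.83 and 0.615 against 8.57, 16.6 and 35.9 FPKM and Ifit1 0.0476, 0.291 and 0.11 against 1.94, 3.51 and 6.39 FPKM (adjusted p = 0.058 with 9 libraries), both highest in replicate 3.

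Interferon acts through the interferon-stimulated response element, whose core was searched as GAAA, any 2 bases and GAAA again on both strands of the RefSeq promoter windows of GRCm38.p6, 250 bases before to 50 after a gene's start. They were found in 18 of the 27 tested members of the list that had a window (66.7%), against 4.05% of the 8995 tested genes with a window and 3.44% of all 32851 windows. Among members that were higher as deposited 14 of 20 held them, and among the others 4 of 7. A match is a description of the sequence, not a binding site. The promoters of 3 members that rose are printed because they hold these letters, which are in capitals, 5′ to 3′ on the strand of the gene, Ifitm3 at chr7:141010695-141010994 on the minus strand, Isg15 at chr4:156200769-156201068 on the minus strand and Ifit1 at chr19:34640639-34640938 on the plus strand.
Ifitm3: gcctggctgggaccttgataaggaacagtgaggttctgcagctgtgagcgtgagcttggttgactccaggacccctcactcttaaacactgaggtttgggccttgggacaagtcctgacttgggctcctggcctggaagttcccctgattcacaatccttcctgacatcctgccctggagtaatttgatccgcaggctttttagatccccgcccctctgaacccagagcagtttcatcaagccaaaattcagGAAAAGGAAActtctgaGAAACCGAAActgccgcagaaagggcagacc
Isg15: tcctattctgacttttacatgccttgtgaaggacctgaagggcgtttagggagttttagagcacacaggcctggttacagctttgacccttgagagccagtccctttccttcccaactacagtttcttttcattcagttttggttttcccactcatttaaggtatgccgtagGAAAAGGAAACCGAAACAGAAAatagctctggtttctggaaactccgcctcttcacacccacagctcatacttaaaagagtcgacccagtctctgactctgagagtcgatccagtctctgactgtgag
Ifit1: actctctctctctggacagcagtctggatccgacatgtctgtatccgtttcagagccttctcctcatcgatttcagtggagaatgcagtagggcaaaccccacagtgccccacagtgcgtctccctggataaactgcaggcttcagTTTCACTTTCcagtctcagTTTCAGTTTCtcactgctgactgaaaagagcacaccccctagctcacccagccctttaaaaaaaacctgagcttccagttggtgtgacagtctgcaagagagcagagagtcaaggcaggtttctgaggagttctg

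MHC class II genes rose in 6 of 10 tested members, with a relative median of 1.58, which ran from 1.44 to 3.44 over all alternatives. Cd74 rose to 407, 265 and 361 FPKM (log2 fold change 6.62, SE 0.90, adjusted p = 0.0018), and H2-Aa and H2-Ab1, the chains that hold the peptide, had 0.0129, 1.56 and 0.106 against 36.2, 27.5 and 42.3 FPKM and 0.312, 3.81 and 0.55 against 44.5, 31.1 and 58.9 FPKM. NRASG12D replicate 2 was the highest of its group in all 3 and still below every NUP98-NSD1 library. In MHC class I presentation 6 of 17 rose and 1 fell, and the median was -0.05 relative to all genes, from -0.16 to 0.22 over all alternatives, with changes of sign without the filter and without NRASG12D replicate 3 or NUP98-NSD1 replicate 1 or 2. The members that rose included the immunoproteasome subunits Psmb9 (12.6, 11.9 and 6.96 against 30.9, 32.5 and 23.6 FPKM) and Psmb8 (11.9% shared) and the class I transactivator Nlrc5 (0.114, 0.224 and 0.158 against 2.24, 2.28 and 2.24 FPKM). H2-D1 (12.8% shared), the most abundant class I chain, had 988, 995 and 999 against 791, 876 and 1075 FPKM with overlapping groups (adjusted p = 0.4, and 0.026 without NUP98-NSD1 replicate 3).

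Transcription factors of blood lineages rose in 17 of 31 and fell in 5 cases, with a relative median of 0.43. Cebpe, which drives late granulocyte maturation, had 0, 0.272 and 0 FPKM in NRASG12D and 82.7, 64 and 15.8 FPKM in NUP98-NSD1 libraries (log2 fold change 5.38, SE 0.55, adjusted p = 0.00082). Tfec, a macrophage relative of Mitf, had 0.0264, 0.0263 and 0.101 against 35.4, 33.3 and 9.77 FPKM, and Id1, an inhibitor of helix-loop-helix factors, 0.677, 6.9 and 1.16 against 69.2, 56.2 and 25.7 FPKM. All 3 were lowest among the NUP98-NSD1 libraries in replicate 3. Among the members that fell were Mitf, a factor of mast cells (29.8, 33.1 and 30.6 against 15.1, 14.5 and 17.6 FPKM, log2 fold change -0.95, SE 0.10, adjusted p = 0.00088), Gata1, of erythroid and mast cells (116, 104 and 108 against 59.3, 67.5 and 78.5 FPKM, log2 fold change -0.68, SE 0.11, adjusted p = 0.0036, adjusted p = 0.34 with 9 libraries) and, of the list of stem regulators, Tal1 (120.2, 120.1 and 119.8 against 64.5, 72.4 and 91.3 FPKM, adjusted p = 0.41 with 9 libraries). Outside the naming rule and chosen after its values were seen, Gata2 had 383, 492 and 450.4 against 304, 349 and 479.9 FPKM with overlapping groups (adjusted p = 0.29, and 0.029 without NUP98-NSD1 replicate 3), and the myeloid factor Spi1 rose from 76.3, 81.3 and 72.6 to 192, 157 and 108 FPKM.

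Stem and self-renewal regulators outside the Hox genes rose in 10 of 27 tested members and fell in 4, while the median of the list was -0.23, or 0.07 without the filter, relative to all genes. Runx2, a factor of bone and of some leukemias, had 0.204, 0.33 and 0.172 FPKM in NRASG12D and 5.39, 3.76 and 3.94 FPKM in NUP98-NSD1 libraries, and Lmo2, a bridging protein of stem cell transcription complexes, 17, 24.2 and 20.3 against 75.1, 92.6 and 41.5 FPKM. Runx2 was low in NRASG12D libraries, whereas Lmo2 was expressed in both groups. Zfp521 (8.98, 7.72 and 7.69 against 4.77, 2.97 and 4.03 FPKM) and the Ikaros family member Ikzf2 (28.7, 30.7 and 27.4 against 14.4, 16.2 and 21.3 FPKM, adjusted p = 0.27 with 9 libraries) fell. Cd34, the most abundant member, was called higher as deposited but not after median-ratio scaling, at 307, 333 and 341 against 400.1, 431 and 492 FPKM (log2 fold change 0.43, adjusted p = 0.012, adjusted p = 0.67 with 9 libraries). Meis1 (17% shared), a partner of Hox proteins named here after its values were seen, had 46.3, 49.3 and 49.5 against 39.4, 40.2 and 49.4 FPKM, with overlapping groups as deposited (log2 fold change -0.17, adjusted p = 0.2) and a call of lower after median-ratio scaling and without NUP98-NSD1 replicate 3 (adjusted p = 0.015).

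In the core of the RAS pathway 4 of 26 members rose and 5 fell, Nras included, with a relative median of -0.23, or 0.11 without the filter. Rasgrp2, an exchange factor best known for RAP1, had 0.0413, 0.584 and 0.201 FPKM in NRASG12D and 69.2, 71.9 and 19.6 FPKM in NUP98-NSD1 libraries (log2 fold change 5.23, SE 0.48, adjusted p = 0.00053). Map2k1, which encodes MEK1, rose from 17.1, 23.7 and 19.3 to 39.99, 35.3 and 29.9 FPKM. The mast cell exchange factor Rasgrp4 (13.9% shared) fell from 54.5, 49.9 and 57.5 to 25.4, 23.8 and 27.9 FPKM and the scaffold Ksr1 from 3.94, 4.02 and 4.55 to 1.97, 1.97 and 1.85 FPKM.

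Genes induced by ERK split into those that rose, 12 of 28, and those that fell, 7, and the relative median of 0.14 became -0.08 without NUP98-NSD1 replicate 3. Immediate early genes were among those that rose. Fos had 9.14, 7.85 and 5.03 FPKM in NRASG12D and 189.6, 133 and 97.8 FPKM in NUP98-NSD1 libraries (log2 fold change 4.06, SE 0.27, adjusted p = 0.00018), the phosphatase Dusp1 4.43, 6.72 and 5.27 against 50.6, 37.6 and 34 FPKM, and Ier2, the most abundant member, 489, 431 and 378 against 1286, 986 and 1130 FPKM. All 3 were higher in every NUP98-NSD1 library. The cyclin Ccnd1 (21.6% shared) fell from 10.1, 50.1 and 32.9 to 2.16, 3.85 and 2.85 FPKM and Spred1, an inhibitor of RAS signalling, from 26.2, 25.9 and 32 to 7.3, 8.12 and 12.3 FPKM (log2 fold change -1.53, SE 0.19, adjusted p = 0.0014). Dusp4, a nuclear phosphatase of ERK, fell from 42.9, 64.6 and 55.6 to 18.4, 24.8 and 23.4 FPKM (adjusted p = 0.1 with 9 libraries). Further feedback genes, chosen after their values were seen, were Dusp6, the cytoplasmic ERK phosphatase (67, 70.9 and 83.8 against 39.8, 42.8 and 52.8 FPKM, adjusted p = 0.28 with 9 libraries), Spry4 (3.25, 3.2 and 5.06 against 0.958, 1.33 and 1.98 FPKM) and the ETS factor Etv5 (24.5% shared, 29.8, 31.3 and 35.9 against 13.4, 17.6 and 21.4 FPKM, adjusted p = 0.052 with 9 libraries), which fell as well. Spry2, chosen in the same way, had 2.6, 3.71 and 2.92 against 3.17, 3.59 and 4.05 FPKM with overlapping groups (adjusted p = 0.32). Every NRASG12D library thus held more RNA of Dusp4, Dusp6, Spred1 and Spry4, and every NUP98-NSD1 library more RNA of Fos, Dusp1 and Ier2.

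**Figure D3:**
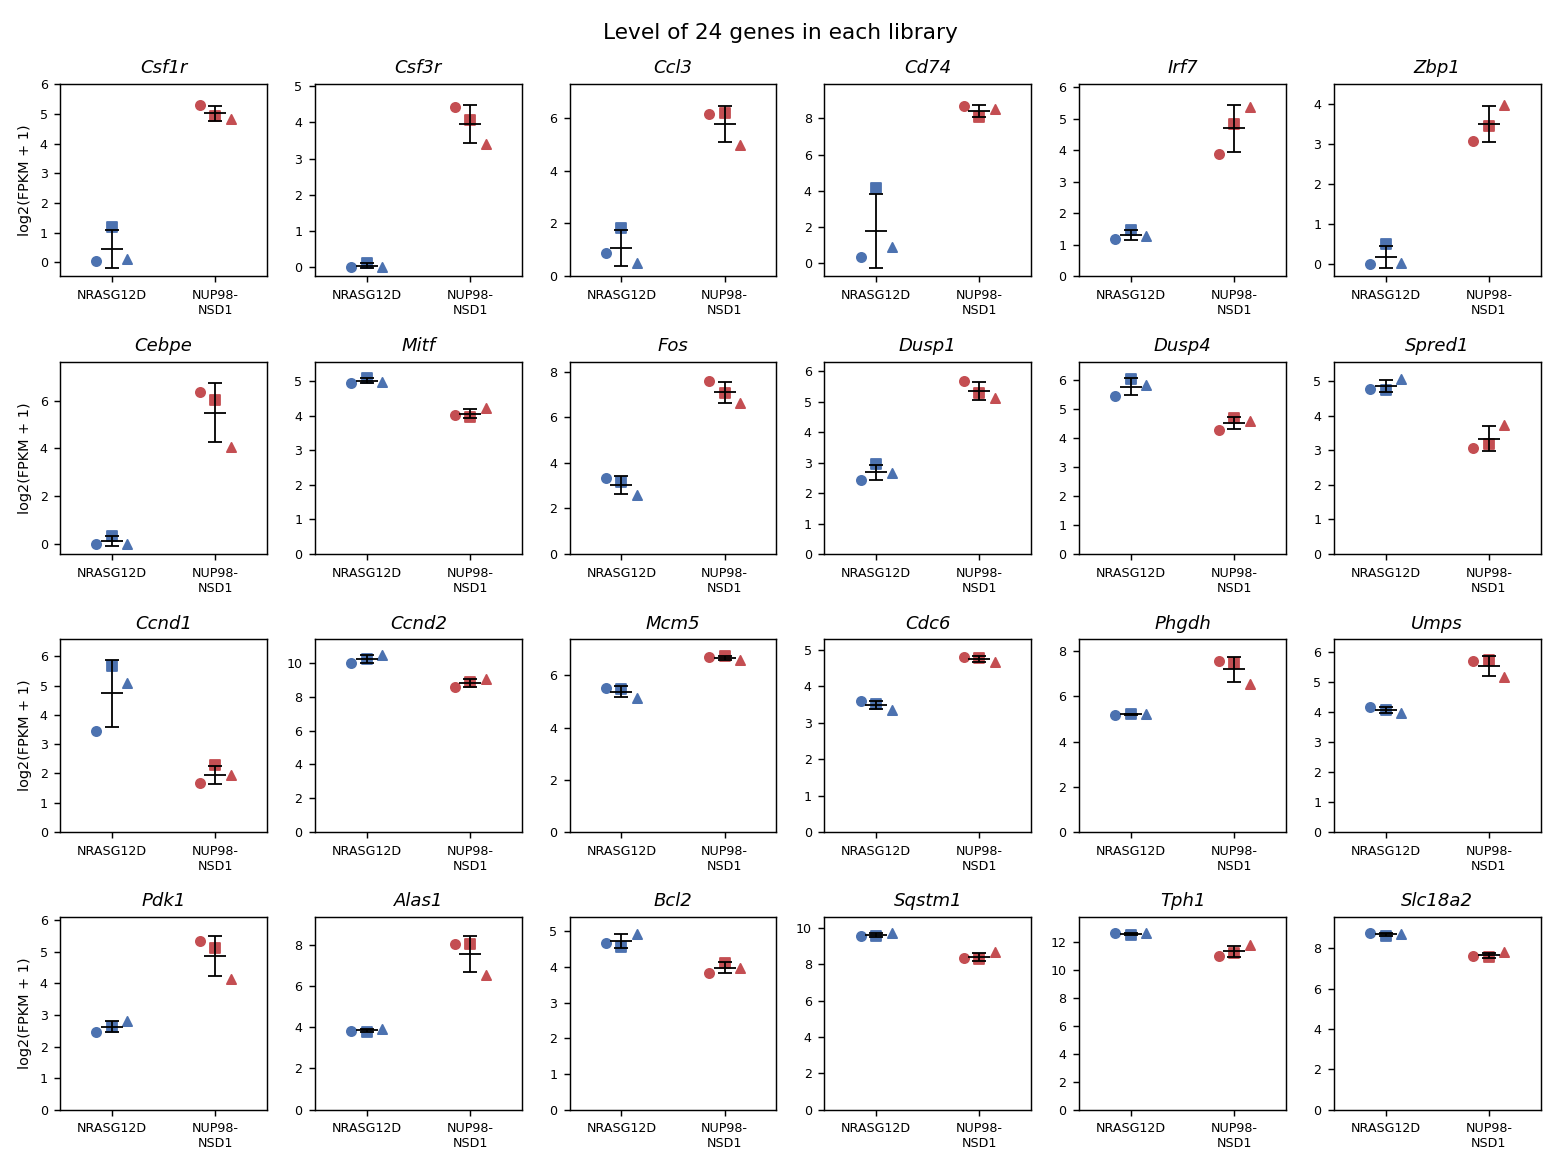
Level of 24 genes as log2(FPKM + 1) in each library (symbols mark replicates 1 to 3 as circle, square and triangle), with the mean and SD of each group (n = 3). Fos, Dusp1, Irf7 and Csf1r were higher and Ccnd1, Spred1, Dusp4 and Tph1 lower in all 3 NUP98-NSD1 libraries.

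Genes of DNA replication were higher with a single exception. Of 41 tested members 40 were called higher as deposited and 35 under both scalings, and the relative median was 0.57. The helicase subunit Mcm5 (ENSMUSG00000005410.6, chromosome 8 from 75109569 to 75128439) had 44.9, 43.5 and 34 FPKM in NRASG12D and 104, 105 and 95.4 FPKM in NUP98-NSD1 libraries (log2 fold change 1.30, SE 0.12, adjusted p = 0.00053), the loading factor Cdc6 (ENSMUSG00000017499.15, chromosome 11 from 98907801 to 98923940) 11.1, 10.4 and 9.27 against 27, 26.5 and 24.5 FPKM, and Gins1, a part of the replicative helicase, 4.04, 4.46 and 2.4 against 17.8, 14.5 and 10.02 FPKM. The groups were apart in each, and NUP98-NSD1 replicate 3 was the lowest of its group. Rfc2, a clamp loader subunit (16% shared) and the most abundant member, was the exception at 415, 380.2 and 392 against 324, 323 and 351 FPKM (log2 fold change -0.25, adjusted p = 0.034, adjusted p = 0.32 with 9 libraries), a call that was lost without any 1 of the NRASG12D libraries or without NUP98-NSD1 replicate 1 or 2 (adjusted p 0.064 to 0.12). Mitosis genes rose in 20 of 34 with none down, among them the kinases Aurka (25.2, 27 and 19.9 against 63.5, 59.8 and 49.2 FPKM) and Bub1 (10.1, 10.4 and 7.12 against 22.4, 21.6 and 17.3 FPKM), and a relative median of 0.52. Cyclins, E2F factors and inhibitors of G1 went both ways, 8 of 27 up and 7 down. E2f2 rose from 1.76, 2.06 and 1.2 to 6.22, 5.1 and 5.87 FPKM and Ccne1 from 11.6, 10.9 and 8.13 to 22.6, 21.8 and 21 FPKM, whereas the D-type cyclin Ccnd2, the most abundant member, fell from 1020, 1178 and 1404 to 384, 460.4 and 534 FPKM (log2 fold change -1.38, SE 0.16, adjusted p = 0.0012). Myc, named after its values were seen, rose from 163, 166 and 179 to 302, 305 and 235 FPKM.

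E2F factors bind the promoters of replication genes, and the letters TTTGGCGC, TTTGGCGG, TTTCCCGC and TTTCCCGG were searched on both strands of the same windows. They were in 14 of 34 replication genes with a window (41.2%), against 7.07% of the tested genes and 3.32% of all windows. The promoters of Mcm5 at chr8:75109259-75109558 and Cdc6 at chr11:98907901-98908200, both on the plus strand, are printed as examples of genes that rose and hold these letters, given in capitals.
Mcm5: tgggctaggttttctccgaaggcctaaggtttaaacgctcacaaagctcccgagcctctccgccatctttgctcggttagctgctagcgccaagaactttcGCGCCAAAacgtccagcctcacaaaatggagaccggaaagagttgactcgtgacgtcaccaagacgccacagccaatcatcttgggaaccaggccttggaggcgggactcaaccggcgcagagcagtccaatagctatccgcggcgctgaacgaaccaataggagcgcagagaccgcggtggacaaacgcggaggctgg
Cdc6: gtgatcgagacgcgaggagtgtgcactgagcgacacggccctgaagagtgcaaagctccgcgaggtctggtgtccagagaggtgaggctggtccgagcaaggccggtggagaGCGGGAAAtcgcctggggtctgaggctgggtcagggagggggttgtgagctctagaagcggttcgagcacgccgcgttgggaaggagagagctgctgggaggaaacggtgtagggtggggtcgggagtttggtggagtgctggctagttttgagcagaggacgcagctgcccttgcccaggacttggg

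Cytosolic ribosomal proteins were called higher in 72 of 81 as deposited and in 34 under both scalings, with a relative median of 0.31. Rpsa (28.8% shared), of the small subunit, rose from 125, 125 and 109.6 to 291, 273 and 189 FPKM, and Rpl32 (25.6% shared), the most abundant, had 1482, 1470 and 1318 against 2022, 1962 and 1477 FPKM (adjusted p = 0.08, and 0.0044 without NUP98-NSD1 replicate 3). Ribosome biogenesis genes rose in 26 of 40 (relative median 0.42), among them Gar1, a protein of box H/ACA particles (30, 43.4 and 49.8 against 96, 116 and 82.9 FPKM), and nucleophosmin, Npm1 (24.3% shared, 176, 182 and 164 against 508, 485 and 310.0 FPKM). Aminoacyl-tRNA synthetases rose in 5 of 20, near the share of all tested genes (24%), among them Dars (54.3, 53.5 and 46.4 against 97, 104 and 78 FPKM). Their relative median of -0.03 ran from -0.10 to 0.24 over all alternatives. It changed sign under quantile normalization, with array weights, without the filter, and without replicate 3 of either group. Enzymes of purine and pyrimidine synthesis rose in 13 of 20 with a relative median of 0.51. Prps1, which makes the ribose phosphate donor, had 13.8, 15.4 and 11.2 FPKM in NRASG12D and 49.9, 55.7 and 36.1 FPKM in NUP98-NSD1 libraries, and Umps, which makes uridine monophosphate, 16.9, 15.8 and 14.6 against 51.9, 52.1 and 35.1 FPKM (log2 fold change 1.48, SE 0.16, adjusted p = 0.00096). In both genes the lowest NUP98-NSD1 library lay well above the highest NRASG12D library.

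Of 25 genes of serine, folate and the ATF4 response 6 rose and 4 fell. The share that rose was that of all tested genes (24%), so the list as a whole did not stand out. Its relative median of -0.03 ran from -0.11 to 0.24 over all alternatives. The sign changed without the filter and without NRASG12D replicate 3 or NUP98-NSD1 replicate 2. The enzymes of serine and folate metabolism Phgdh (47.8% shared, 35.3, 36.8 and 35.8 against 189, 178 and 94 FPKM), Shmt1 (10.5, 11.2 and 8.37 against 38.1, 48 and 30.02 FPKM) and Mthfd1 (19.9, 18.5 and 19.3 against 49, 54.9 and 41.5 FPKM) rose. The stress-induced genes Trib3 (33.5, 29 and 35.6 against 11, 15.3 and 18.1 FPKM) and Sesn2 (50.6, 40.9 and 58.7 against 29.1, 33.1 and 31.7 FPKM) and the amino acid transporter chain Slc3a2 (498, 511 and 528 against 313, 322 and 393 FPKM, adjusted p = 0.0045) fell.

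Mitochondrial ribosomal proteins rose in 58 of 79 (relative median 0.44), for example Mrps10 (26.1, 25.1 and 22.4 against 58.6, 63.1 and 45.8 FPKM), nuclear subunits of oxidative phosphorylation in 37 of 75 (relative median 0.29), for example Cyc1 of complex III (106, 98.8 and 84.6 against 212, 207 and 169.6 FPKM), and enzymes of the tricarboxylic acid cycle in 10 of 17 (relative median 0.31). None of these 3 lists had a member that fell, although 1 mitochondrial ribosomal protein and 4 oxidative phosphorylation subunits were called lower after median-ratio scaling alone. Idh2, the mitochondrial isocitrate dehydrogenase, had 48.6, 47.2 and 44.1 FPKM in NRASG12D and 166, 158 and 93.7 FPKM in NUP98-NSD1 libraries (log2 fold change 1.52, SE 0.21, adjusted p = 0.0019). Of 13 mitochondrially encoded subunits none rose and 2 fell, with a relative median of -0.14, or 0.14 without the filter. These were mt-Nd3 (98% shared, adjusted p = 0.34 with 9 libraries) and mt-Nd2 (adjusted p = 0.53 with 9 libraries) of complex I, and the call of mt-Nd2 was lost without NRASG12D replicate 2 or 3 or NUP98-NSD1 replicate 1 or 2 (adjusted p 0.077 to 0.097). The most abundant, mt-Atp8, had 1422, 1593 and 1675 against 1891, 1840 and 1750 FPKM (adjusted p = 0.098), and the direction of its change depended on the scaling, with a log2 fold change of 0.23 as deposited and -0.08 after median-ratio scaling.

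Glycolysis and glucose uptake genes rose in 12 of 24 and fell in 1. Hk3, a hexokinase of myeloid cells, had 0.0289, 0.67 and 0.0619 FPKM in NRASG12D and 50.2, 57.8 and 15.5 FPKM in NUP98-NSD1 libraries, Pdk1, which restrains pyruvate dehydrogenase, 4.56, 5.21 and 5.97 against 39.2, 33.7 and 16.7 FPKM (log2 fold change 2.23, SE 0.29, adjusted p = 0.0016), and the lactate transporter Slc16a1 3.66, 3.8 and 3.2 against 24.1, 22.9 and 16.1 FPKM. The glucose transporter Slc2a3 fell from 77.9, 104 and 93.5 to 33.9, 36.3 and 49.3 FPKM (adjusted p = 0.051 with 9 libraries), and the most abundant member, aldolase Aldoa, had 878, 954 and 868 against 1450, 1205 and 973 FPKM (adjusted p = 0.055, and 0.0058 without NUP98-NSD1 replicate 3). In the pentose phosphate pathway 3 of 7 rose, among them transketolase, Tkt (188, 216 and 198 against 334, 306 and 259 FPKM, adjusted p = 0.052 with 9 libraries). Of 23 genes of sterol synthesis and uptake 1 rose and 1 fell, with a relative median of -0.27, or 0.00 without the filter, and of 17 genes of fatty acid synthesis 2 rose and 1 fell, with a relative median of -0.22, or 0.10 without the filter. After median-ratio scaling 10 of the sterol genes and 9 of the fatty acid genes were called lower. Acsl1, which activates fatty acids, rose from 3.42, 5.03 and 4.25 to 19.2, 17 and 11.2 FPKM.

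Haem and iron genes rose in 5 of 24 and fell in 3, near the shares of all tested genes (24% and 9.98%). Their relative median was 0.06, from 0.01 to 0.32 over all alternatives. Alas1 (ENSMUSG00000032786.16, chromosome 9 from 106233455 to 106248654), the first and rate-limiting enzyme of haem synthesis, had 13.1, 12.8 and 14.3 FPKM in NRASG12D and 258, 263 and 90.4 FPKM in NUP98-NSD1 libraries (log2 fold change 3.68, SE 0.39, adjusted p = 0.00088), lowest of its group in replicate 3. The transferrin receptor Tfrc rose from 13.9, 8.4 and 12.5 to 42.8, 51 and 29.6 FPKM and the iron exporter Slc40a1 from 0.037, 0.103 and 0.224 to 3.78, 4.37 and 2.29 FPKM. Of 26 redox genes 13 rose and 1 fell. The microsomal glutathione transferases Mgst1 (0, 0.176 and 0 against 49.4, 30.02 and 16.6 FPKM) and Mgst2 (2.2, 3.58 and 1.88 against 66.6, 44.2 and 14.6 FPKM) rose, as did glutathione peroxidase, Gpx1 (370.2, 341 and 299 against 666, 636 and 526 FPKM), and catalase, Cat, fell from 88.5, 104 and 89.2 to 64.3, 58.1 and 65.8 FPKM. All NUP98-NSD1 libraries lay above the NRASG12D libraries in the genes that rose.

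Targets of p53 rose in 4 of 22 and fell in 3, with a relative median of -0.06, or 0.21 without the filter. Btg2, which restrains proliferation, had 2.51, 2.43 and 4.02 against 58.6, 45.1 and 30.04 FPKM (log2 fold change 3.49, SE 0.26, adjusted p = 0.00024), while Mdm2, the ubiquitin ligase of p53, fell from 78.7, 79 and 74.2 to 61.8, 63.9 and 61 FPKM (adjusted p = 0.35 with 9 libraries). In the BCL2 family 6 of 18 rose and 2 fell. The 3 largest rises were the A1 copies Bcl2a1a (69% shared), Bcl2a1b (79.2% shared) and Bcl2a1d (79.5% shared), whose separate levels are uncertain, and Bcl2, which protects from apoptosis, fell from 24.3, 22.4 and 29.6 to 13.1, 16.4 and 14.8 FPKM (log2 fold change -0.74, SE 0.13, adjusted p = 0.0042, adjusted p = 0.14 with 9 libraries). The relative median of that list was 0.07 and changed sign under the filter of 5 FPKM. The most abundant member of both lists, the pore-forming Bax, had 322, 368 and 319 against 339, 377 and 330.4 FPKM with overlapping groups (log2 fold change 0.05, adjusted p = 0.66), and was called lower after median-ratio scaling.

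Of 18 genes of eicosanoid, histamine and serotonin synthesis 4 rose and 8 fell, with a relative median of -0.49, or 0.11 without the filter. Tph1, the rate-limiting enzyme of serotonin synthesis outside the nervous system, had 6189, 5691 and 6354 FPKM in NRASG12D and 2033, 2400 and 3493 FPKM in NUP98-NSD1 libraries (log2 fold change -1.24, SE 0.20, adjusted p = 0.0032, adjusted p = 0.19 with 9 libraries), and Slc18a2, which loads amines into vesicles, 431, 394 and 424 against 196, 186 and 224 FPKM (adjusted p = 0.16 with 9 libraries). Alox5, the first enzyme of leukotriene synthesis, chosen after its values were seen, fell from 1415, 1358 and 1425 to 619, 637 and 924 FPKM (adjusted p = 0.2 with 9 libraries). Histidine decarboxylase, Hdc, which makes histamine, went the other way, from 3.61, 8.72 and 1.6 to 102, 169 and 51.8 FPKM, as did Ptgs1, a cyclooxygenase (11.6, 23 and 13.5 against 57, 51.9 and 48.6 FPKM), and Lta4h, which makes leukotriene B4 (137, 141 and 141 against 342, 330.4 and 192 FPKM). Serotonin and amine storage genes were thus lower and the gene for histamine synthesis higher in all NUP98-NSD1 libraries.

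Genes of regulated exocytosis rose in 4 of 29 and fell in 7 (relative median -0.31, or -0.01 without the filter). The paralogs of the vesicle GTPase moved apart, with Rab27a at 11.9, 10.9 and 10.3 against 29.9, 31.3 and 20.9 FPKM and Rab27b at 183, 206 and 193 against 77.2, 82 and 101 FPKM (log2 fold change -1.16, SE 0.12, adjusted p = 0.00072, adjusted p = 0.15 with 9 libraries). Vamp8, the most abundant member, had 350.3, 361 and 306 against 321, 362 and 373 FPKM (adjusted p = 0.67). Lysosomal genes went both ways, 13 of 49 up and 13 down with a relative median of -0.22, or 0.05 without the filter. The share up was near the 24% of all tested genes, and the share down was above their 9.98%. The cathepsins Ctss (0.791, 4.21 and 1.2 against 138, 137 and 168 FPKM) and Ctsh (0.159, 0.575 and 0.261 against 23.3, 13.7 and 25.8 FPKM) rose, and the glycolipid activator Gm2a (429, 281 and 512 against 192, 175 and 197 FPKM) and the tetraspanin Cd63 (11.1% shared, 3540, 3124 and 3375 against 1752, 1881 and 2424 FPKM, adjusted p = 0.096 with 9 libraries) fell. The letters TCACGTGA, bound by Tfeb and its relatives, Mitf included, were in 5 of 41 lysosomal promoters with a window (12.2%), against 2.38% of the tested genes and 0.974% of all windows, and in none of the 15 whose genes were higher as deposited. Subunits of the V-ATPase, the proton pump of these organelles, rose in 2 of 17 and fell in 3 (relative median -0.19, or 0.04 without the filter), with Atp6v1b2 higher (43.8, 46.6 and 42.7 against 95.1, 86.3 and 64 FPKM) and Atp6v0a2 lower (57, 61.8 and 66.3 against 41.9, 44.5 and 50.3 FPKM, adjusted p = 0.05 with 9 libraries). Autophagy genes rose in 2 of 25 and fell in 5 (relative median -0.22, or 0.05 without the filter). The cargo receptor Sqstm1 (15.5% shared) fell from 754, 748 and 840.5 to 317, 308 and 407 FPKM, and Tfeb rose from 0.687, 0.306 and 0.148 to 5.2, 4.67 and 3.15 FPKM.

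Tetraspanins and cell adhesion molecules rose in 12 of 27 and fell in 8. Cadm1, which mast cells use to adhere, fell from 117, 90.1 and 103 to 12.1, 9.64 and 13.4 FPKM (log2 fold change -3.04, SE 0.14, adjusted p = 4.8e-05). Cd53, the most abundant member, had 368, 367 and 330.5 against 332, 338 and 326 FPKM with overlapping groups (adjusted p = 0.35), and was called lower after median-ratio scaling. Of 15 integrins 6 rose, among them Itgb2, the chain shared by leukocyte integrins (4.05, 13.9 and 4.41 against 84.1, 66.5 and 47.7 FPKM), and Itga4 (0.994, 1.7 and 3.71 against 16.2, 16 and 12.8 FPKM), and only Itga2b fell.

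Of 26 genes of histone H3 methylation and of CBP/p300 1 rose, Dpy30, a subunit of the H3K4 methyltransferases (56.3, 60.1 and 35.1 against 123, 137 and 104 FPKM, adjusted p = 0.0033), and 2 fell, Kmt2b (adjusted p = 0.093 with 9 libraries) and Kmt2c (adjusted p = 0.073 with 9 libraries), also methyltransferases of H3K4. The call of Kmt2b was lost without NRASG12D replicate 1 or NUP98-NSD1 replicate 2 (adjusted p 0.055 to 0.058), and that of Kmt2c without NRASG12D replicate 2 or 3 or NUP98-NSD1 replicate 1 or 2 (adjusted p 0.1 to 0.11). Nuclear pore genes rose in 13 of 28, Nup98 included, with none down (relative median 0.27). Nup210, a membrane nucleoporin, had 4.11, 5.48 and 4.9 FPKM in NRASG12D and 31.1, 32.5 and 22.7 FPKM in NUP98-NSD1 libraries (log2 fold change 2.34, SE 0.16, adjusted p = 0.00018), with the groups far apart. Proteasome genes rose in 18 of 43 with none down (relative median 0.22), and the largest rises were those of the immunoproteasome, Psmb10 included (29.96, 30.6 and 25.8 against 66.6, 71.7 and 47.7 FPKM). ER chaperones and unfolded protein response genes rose in 9 of 24 and fell in 1, with calreticulin, Calr, at 421, 437 and 431 against 739.8, 769 and 560.1 FPKM (adjusted p = 0.055 with 9 libraries) and Hspa5, the most abundant, at 669, 641 and 573 against 958, 894 and 825 FPKM (adjusted p = 0.051 with 9 libraries), the latter called higher as deposited but not after median-ratio scaling.

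Of all genes outside the mast cell, neutrophil and Hox genes, the 12 with the largest rises were drawn without regard to function. Ly6c2 (14.5% shared), a surface marker of monocytes, went from 0.654, 1.01 and 0.508 to 611, 465 and 245 FPKM (log2 fold change 7.91, SE 0.31, adjusted p = 3.3e-05), and Saa3, an acute phase protein of macrophages, from 0.309, 0.633 and 0.607 to 168, 115 and 146 FPKM (log2 fold change 6.56, SE 0.16, adjusted p = 4.9e-06). Haptoglobin, Hp, had 0, 0.542 and 0.0745 against 295, 178 and 93.1 FPKM, and the protease inhibitor Slpi 0.197, 0.746 and 0.36 against 135, 157 and 34.9 FPKM. Wfdc17, Ccl6, Gpnmb and osteopontin, Spp1 (11.6% shared), were also among these 12, with log2 fold changes of 6.54, 6.14, 5.83 and 5.90. The basophil protease Prss34 varied most within NUP98-NSD1, at 0.445, 1.11 and 1.47 against 119, 450.4 and 41.2 FPKM. Besides Nras, Cadm1, Ccnd1 and Cd59a, the largest falls were those of the tetraspanin Tspan8 (13.2, 12.5 and 17.1 against 0.919, 0.543 and 1.26 FPKM), Cpeb1, which controls polyadenylation and translation of messenger RNA (32.6, 38.3 and 31.5 against 3.62, 2.87 and 6.56 FPKM), Pdzk1ip1 (18.8, 53.5 and 60.2 against 4.51, 3.68 and 7.38 FPKM) and protein S, Pros1 (15.7, 26.4 and 17.1 against 4.08, 3.28 and 4.11 FPKM). Grm6 (10.3% shared), Rpp25 and AI593442 were also among them, with log2 fold changes of -2.23, -2.32 and -2.96. Ddc, which makes serotonin from its precursor, had 8.53, 43.2 and 11.6 against 1.64, 1.37 and 4.66 FPKM (adjusted p = 0.014), and its call was lost without NUP98-NSD1 replicate 2 (adjusted p = 0.052).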

How the data were processed

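The authors sequenced 9 RNA libraries as paired-end reads of 50 bp, and per the submitters' processing notes used STAR 2.7.2a, Cufflinks 2.2.1 and GRCm38.p6. The deposited values are FPKM per gene and library, summed here per gene identifier. Fragment counts, on which the methods name DESeq2, were not used here. The use of strand and of reads with several alignments is not given in the sources used here.

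Genes that reached 1 FPKM in 3 or more of the 9 libraries were tested on the scale of log2(FPKM + 1), 3 NUP98-NSD1 against 3 NRASG12D samples, by limma 3.58.1 (R 4.3.3, lmFit, eBayes with a trend, no block). Adjusted p-values are those of Benjamini and Hochberg across the 13493 tested genes (threshold 0.05). The fit was tested on simulated data. Marker list sums were tested by exact permutation, two-sided. Median-ratio factors of the 6 libraries were taken over genes above 0 in all of them. Depth was estimated from the steps of FPKM times length in 3386 genes with a single transcript of at least 2500 bp. Shared sequence is the percent of a gene's 50-base stretches found in transcripts of other genes, on either strand. Promoter sequences come from RefSeq, GRCm38.p6, whose windows were matched by symbol, and gene coordinates are those of the files. Tables were made with Python 3.11.15, pandas 2.3.3, numpy 2.4.6 and matplotlib 3.10.9.

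Named genes are Nras, Nup98 and Nsd1, the 12 largest rises and 12 largest falls with groups that did not overlap and a mean FPKM of at least 10 in the higher group, outside Hox, mast cell and neutrophil genes and genes without a protein product, in each list up to 3 rises and 3 falls called under both scalings and the most abundant member, and defining markers. The members and the 60 lists were chosen with earlier results of these data known. Some list members, and the 3 libraries with both genes except in the filter and an alternative fit, were not analysed here.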

Additional observations from a re-analysis of the deposited data

How the results depend on the processing

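Other pseudocounts, filters, scalings and fits left the number of genes called within 1.5 times of 7036, except the fit of all 9 libraries, which called 3065, and 4736 to 7948 were called without 1 library. The share that was higher, 80.9%, was 52.3% after median-ratio scaling, 43.2% after quantile normalization, 67.5% with each library rescaled to the same sum (TPM), 85.0% with all 9 libraries, 78.8% with array weights, and 79.8% to 83.2% without 1 library. The causes were not tested.

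With the replicate number as a block 6864 genes were called, 81.7% of them higher. Same-numbered libraries had correlations of -0.0669, -0.0369 and 0.0207 after removal of group means, and other pairs had -0.14 to 0.179. With 3 libraries per group, 1 of which stood apart, these values cannot tell whether a number stands for a shared animal or culture. The block changed the call of none of the 174 called genes named here.

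Of 174 named genes called, 137 kept their call in every alternative, none changed sign, and 35 were not called with all 9 libraries in the fit, where their fold changes are the same. The sign relative to all genes was the same in every alternative for 37 of 60 lists, and 19 of the other 23 changed it when low values were not filtered. Relative medians that kept their sign also moved in size, for example from 0.29 to 0.56 for nuclear oxidative phosphorylation subunits without the filter. The fibroblast list had no member left under the filter of 5 FPKM.

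Some genes that did not pass the test as deposited had log2 fold changes of both signs. After median-ratio scaling they were -0.26 for Bax (called lower), -0.19 for Ccl2, -0.18 for Nsd1, -0.055 for Spry2, -0.26 for Vamp8 and -0.082 for mt-Atp8. After quantile normalization they were -0.15 for Bax, -0.014 for Ccl2, 0.11 for Fcer1a, 0.54 for Ifitm1 (called higher, against the sign as deposited), -0.21 for Nsd1, -0.16 for Spry2 and -0.16 for Vamp8. With libraries rescaled to the same sum they were -0.11 for Bax, -0.05 for Ccl2, -0.054 for Nsd1 and -0.11 for Vamp8, and with array weights -0.054 for Nsd1. Without 1 library they ran from -0.003 to 0.12 for Bax, from -0.082 to 0.394 for Ccl2, from -0.178 to 0.136 for Ifitm1 and from -0.018 to 0.118 for Vamp8.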
